A study of Mus musculus with 12 samples.

Results

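The transcripts of 10 apolipoprotein genes, Apoa1, Apoa2, Apoa4, Apoa5, Apob, Apoc1, Apoc2, Apoc3, Apoe and Apom, were followed through 4 groups of mouse livers. The genes were taken as a list of symbols, by a rule that uses no measured value, though with earlier results of these data known. They were found in the table of counts by their Entrez identifiers. All 10 were among the 27179 genes counted and among the 13947 with enough counts to be tested. RNA was measured in bulk from frozen liver of 12 mice, 1 library per mouse and 3 per group. Male mice were put on chow (CD) or on a low-protein diet (LPD) at 8 weeks of age and received a hydrodynamic injection into the tail vein 1 week later. By the study's methods LPD held less protein and more carbohydrate than CD, at nearly equal fat. A difference between the diets can therefore not be assigned to protein or to carbohydrate alone. The injection held either empty vector (Vec) or plasmids for human c-MET and for a β-catenin that lacks its N terminus and is constitutively active, both under the EF1α promoter, and the Sleeping Beauty transposase inserts such plasmids into the genome of the hepatocytes that take them up. The combination induces hepatocellular carcinoma. Mice that received both oncogenes are called Onco (c-MET/β-catenin), which gives the groups CD Vec, CD Onco, LPD Vec and LPD Onco. All livers were collected when the CD Onco mice reached their end point, so the LPD Onco livers were at a matched time and not at an end point of their own. Control mice received the vector and the same procedure, and the promoter is not restricted to hepatocytes. The labels call the vector controls WT and name the cell type as hepatocyte although whole liver was used, and the count table calls the chow libraries HPD. Here these libraries are treated as chow, as in the labels.

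Apolipoproteins are the protein part of the particles that carry lipid in the blood, and most of them are made by hepatocytes. Apob is the scaffold of very-low-density lipoprotein (VLDL), on which the liver exports triglyceride and cholesterol ester, and Apoe is the ligand by which remnants of these particles are taken up again. Apoa1 and Apoa2 are the main proteins of high-density lipoprotein (HDL), and smaller apolipoproteins that move between particles set how fast their triglyceride is hydrolysed: Apoc2 activates lipoprotein lipase, Apoa5 promotes its action, and Apoc1 and Apoc3 oppose hydrolysis or clearance. Apom carries sphingosine-1-phosphate on HDL. Several of the genes stand side by side in the mouse genome, Apoa1, Apoc3, Apoa4 and Apoa5 on chromosome 9 and Apoc2, Apoc1 and Apoe on chromosome 7.

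The sequences just upstream of 5 of these genes are shown because 4 of them, Apoa5, Apoa2, Apob and Apoe, had lower transcript levels in Onco than in Vec livers on CD, whereas Apoa1, which lies in the same cluster as Apoa5, did not. They are RefSeq sequences of build GRCm38.p6, read 5′ to 3′ on the strand of the gene, and they end before the first base of an exon in the GENCODE M21 annotation of that build. RefSeq promoter windows were at hand for 8 of the 10 genes, and Apoc1 and Apoc3 had no entry. Capitals mark matches, on either strand, to 6 short motifs: TATAAA (the TATA box), CCAAT (bound by NF-Y), AGGTCA (a nuclear receptor half-site), CAAAGTCCA (a sequence bound by HNF4A), CTTTGAT (a sequence bound by TCF/LEF, the DNA-binding partners of β-catenin) and CACGTG (an E-box).
Apoa5 (chr9:46268358-46268607, plus strand): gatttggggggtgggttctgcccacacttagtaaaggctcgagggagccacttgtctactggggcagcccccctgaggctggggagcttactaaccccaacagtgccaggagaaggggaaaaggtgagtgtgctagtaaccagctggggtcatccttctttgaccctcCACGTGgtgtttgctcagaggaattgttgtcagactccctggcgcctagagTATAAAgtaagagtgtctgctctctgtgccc
Apoa2 (chr1:171224804-171225053, plus strand): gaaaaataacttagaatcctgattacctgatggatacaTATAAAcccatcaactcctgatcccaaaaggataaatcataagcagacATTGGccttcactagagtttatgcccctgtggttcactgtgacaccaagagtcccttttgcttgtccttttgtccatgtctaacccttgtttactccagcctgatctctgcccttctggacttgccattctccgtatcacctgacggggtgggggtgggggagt
Apob (chr12:7977427-7977647, plus strand): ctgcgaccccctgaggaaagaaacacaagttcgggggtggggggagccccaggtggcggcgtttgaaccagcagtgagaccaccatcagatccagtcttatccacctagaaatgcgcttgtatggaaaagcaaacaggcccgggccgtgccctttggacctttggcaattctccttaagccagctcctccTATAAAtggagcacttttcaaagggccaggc
Apoe (chr7:19699189-19699438, minus strand): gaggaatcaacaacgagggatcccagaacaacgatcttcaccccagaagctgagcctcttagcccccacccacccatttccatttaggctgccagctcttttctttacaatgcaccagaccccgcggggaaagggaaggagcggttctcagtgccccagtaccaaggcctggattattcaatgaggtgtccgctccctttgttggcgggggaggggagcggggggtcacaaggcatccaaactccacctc
Apoa1 (chr9:46228380-46228579, plus strand): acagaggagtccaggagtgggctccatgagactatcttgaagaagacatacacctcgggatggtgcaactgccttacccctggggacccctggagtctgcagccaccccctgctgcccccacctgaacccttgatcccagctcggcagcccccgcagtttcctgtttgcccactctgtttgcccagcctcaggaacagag
The window upstream of Apoa5 held TATAAA at position -31 and CACGTG at position -82 from the start base of its transcript. From another RefSeq start of Apoa5, 25 bases further on and at the GENCODE start, they stand at -56 and -107. That of Apoa2 held TATAAA at position -212 and, on the opposite strand, CCAAT at position -164, and it lies inside a longer RefSeq transcript of the gene. That of Apob held TATAAA. No motif was found in the Apoa1 and Apoe stretches, which says only that these letters are not in these windows, and the window of another RefSeq start of Apoe held TATAAA. Of all 32817 RefSeq windows of 250 bases before a start, 12.4% held TATAAA, 33.8% CCAAT, 14% AGGTCA, 0.384% CAAAGTCCA, 3.21% CTTTGAT and 6.02% CACGTG. A match describes the sequence and is no evidence of binding.

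Values below are CPM (read counts scaled to a common library size) after correction of the libraries by the trimmed mean of M values (TMM). The libraries held between 19476209 and 31990267 counts, and each of the 10 genes had at least 2277 reads in each library. Differences are log2 fold changes with their standard errors (SE) from edgeR's quasi-likelihood test, in a fit of all 12 libraries, with p-values adjusted by the Benjamini-Hochberg method over all 13947 genes, and a gene is called where the adjusted p is under 0.05. In bulk tissue, fewer cells of a type and less RNA per cell cannot be told apart. A second line in the header of the table gives dataset numbers that fall into 3 runs, which the labels do not explain. The first run held only CD Onco replicates 1 and 2, the third held replicates 1 and 2 of CD Vec with replicate 1 of LPD Vec, and the second held the other 7 libraries.

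The 10 genes together took 5.59% ± 0.795 of all counts in CD Vec, 4.94% ± 0.318 in CD Onco, 4.68% ± 0.251 in LPD Vec and 4.55% ± 0.346 in LPD Onco livers (SD, n = 3 each). Per kilobase of exon, which allows levels to be set against each other, Apoa2, Apoe and Apoa1 stood highest in CD Vec livers, at 16000 ± 2820, 14800 ± 2380 and 12100 ± 4930 CPM per kilobase, and their ranges overlapped. Apoc1 (4240 ± 856), Apoc3 (2400 ± 522), Apoa5 (912 ± 133) and Apob (468 ± 32.7) followed, each with a range apart from the next. Apoc2 (240 ± 62.2), Apoa4 (229 ± 80.3) and Apom (176 ± 35.1) stood lowest and overlapped. In CD Onco livers the order was another. Apoa1 stood alone at the top at 15200 ± 1220 CPM per kilobase, above Apoe (8860 ± 1280) and Apoa2 (6670 ± 1440), and Apoa5 (302 ± 97.4) had moved to the ninth place, where its range overlapped those of Apob (312 ± 7.8) and Apom (319 ± 17.4). In LPD Onco livers Apoa5 was again sixth, at 764 ± 155 CPM per kilobase, with no overlap with Apob at 441 ± 31.5.

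**Figure D1:**
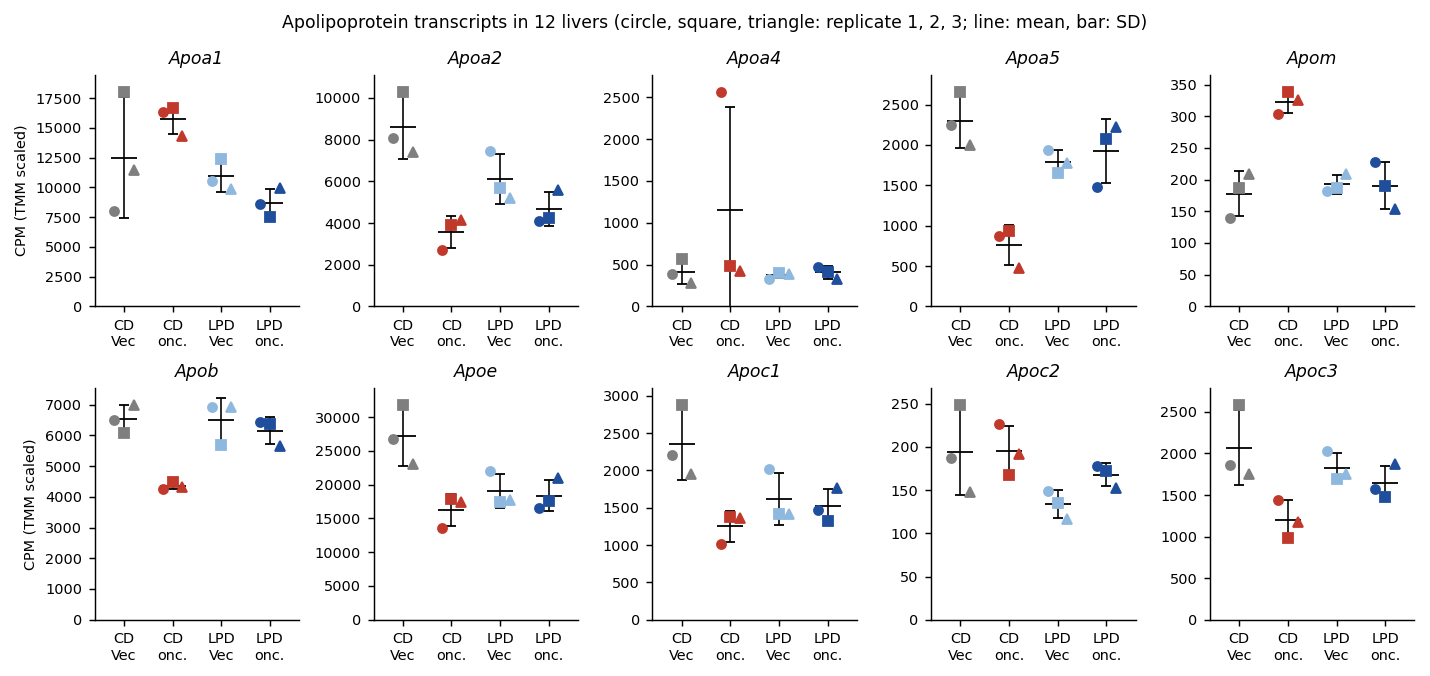
Transcript level of each apolipoprotein gene in each of the 12 livers, in TMM-scaled CPM on a linear axis from 0 (onc. stands for Onco). Circles, squares and triangles are replicates 1, 2 and 3, the horizontal line is the mean and the bar the SD (n = 3), whose lower end falls below 0 for Apoa4 in CD Onco livers. Apoa5, Apob and Apoc3 in CD Onco livers lie below every other library, and Apom lies above.

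The first comparison asked how the apolipoprotein genes differed between tumor-bearing and control livers on CD. Of the 10, 6 fell (Apoa2, Apoa5, Apob, Apoc1, Apoc3 and Apoe), 1 rose (Apom), and Apoa1, Apoa4 and Apoc2 did not pass the test. Among all genes tested, 35.4% were called, 18.7% as higher and 16.7% as lower. The median log2 fold change was -0.66 over the 10 genes and -0.01 over all genes tested. For the 7 genes called no CD Onco liver overlapped with a Vec liver, as was so for 22.2% of all genes in the higher and 20.4% in the lower direction. These calls were not independent of the runs in the header: only 1 library of each CD group lay in the same run, and in a fit with a term for the runs 1 of the 10 genes was called, Apoa5 (log2 fold change -2.10, adjusted p = 0.00576). The term takes up CD Onco replicates 1 and 2, so every value of that fit for CD Onco livers rests on replicate 3 alone, which is assumed to vary like the other groups and had the lowest Apoa5 of all 12 livers. Without replicate 3 Apoa5 was at -1.35 (adjusted p = 0.000749). In the fit with the term the other 6 kept their direction, with values from -0.79 for Apoa2 to -0.41 for Apoe and 0.72 for Apom. Between the 2 libraries within the second run, CD Onco replicate 3 and CD Vec replicate 3, log2 CPM differed by -2.06 for Apoa5, -0.84 for Apoa2, -0.69 for Apob, -0.58 for Apoc3, -0.53 for Apoc1, -0.41 for Apoe and 0.65 for Apom. With libraries scaled by total counts only, which moved the median of all genes on CD from -0.01 to 0.28 and the share of higher genes among the calls from 52.8% to 78.8%, Apob (-0.30, adjusted p = 0.108) and Apoe (-0.45, adjusted p = 0.0524) were not called, and Apoa1 (0.64, adjusted p = 0.0491) and Apoa4 (1.76, adjusted p = 0.0284) were.

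Apob and Apoe, the proteins of VLDL and of its remnants, were both lower in CD Onco livers. Apob stood at 6484, 6078 and 6987 CPM in the CD Vec livers and at 4261, 4473 and 4325 CPM in the CD Onco livers. It stood at 6911, 5674 and 6912 CPM in LPD Vec and at 6429, 6370 and 5640 CPM in LPD Onco livers. The 3 CD Onco livers were therefore the lowest of all 12, and they differed among themselves by little, with a coefficient of variation of 2.5%. On CD Apob fell by 0.58 on the log2 scale (SE 0.141, adjusted p = 0.00739), to 0.668 of the Vec level. Apoe stood at 26710, 31780 and 23070 CPM in CD Vec and at 13580, 17880 and 17400 CPM in CD Onco livers. It fell by 0.74 on the log2 scale (SE 0.187, adjusted p = 0.00927). In LPD Vec livers Apoe stood at 22030, 17450 and 17740 CPM and in LPD Onco livers at 16550, 17550 and 20950 CPM, so that in both LPD groups it overlapped with CD Onco and lay below every CD Vec liver.

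Macrophages also make Apoe, and their markers were followed in separate lists for tumor or lipid-associated macrophages and for Kupffer cells. The 5 markers of tumor or lipid-associated macrophages (Trem2, Gpnmb, Spp1, Cd9 and Cd63) all rose on CD, and their summed level was between 42.64 and 61.08 CPM in CD Vec and between 237.5 and 537.4 CPM in CD Onco livers. It was between 80.61 and 97.41 CPM in LPD Vec and between 79.9 and 128.5 CPM in LPD Onco livers, and no marker was at 0 in a group. In CD Onco livers Trem2 stood at 3.95, 4.24 and 3.37 CPM and Gpnmb at 2.63, 1.18 and 20.2 CPM. Most of the sum there came from Spp1, Cd9 and Cd63. Of the 6 Kupffer cell markers none was called on CD, and their sum lay between 86.08 and 200.6 CPM in CD Vec and between 137 and 284.5 CPM in CD Onco livers. The part of these cells in the Apoe level was not tested.

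The HDL proteins did not move as a group. Apoa1 stood at 7994, 18050 and 11480 CPM in CD Vec and at 16310, 16650 and 14310 CPM in CD Onco livers. The Vec livers ranged widely, with a coefficient of variation of 40.8%, and enclosed the Onco livers. The log2 fold change was 0.33 (SE 0.251, adjusted p = 0.328), and it became 0.69 (adjusted p = 0.0271) without CD Vec replicate 2, the library with the highest Apoa1. It became 0.10 (adjusted p = 0.759) without CD Vec replicate 1, the CD Vec library with the lowest Apoa1. Apoa1 stood at 10570, 12390 and 9859 CPM in LPD Vec and at 8609, 7538 and 9949 CPM in LPD Onco livers, so the LPD groups overlapped. Apoa2 stood at 8056, 10300 and 7419 CPM in CD Vec and at 2703, 3897 and 4152 CPM in CD Onco livers, which did not overlap. It fell by 1.26 on the log2 scale (SE 0.223, adjusted p = 0.00114), to 0.417 of the Vec level. LPD Vec livers held 7470, 5669 and 5215 CPM of Apoa2 and LPD Onco livers 4118, 4255 and 5594 CPM. A long RefSeq transcript of Apoa2 overlaps Tomm40l, which encodes a mitochondrial import pore protein, and the handling of strand in counting is not stated. Tomm40l had a mean of 76.93 CPM over the 12 libraries, against 5737 CPM for Apoa2.

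Apom was the 1 gene of the 10 that rose on CD. It stood at 138.9, 186.5 and 208.4 CPM in CD Vec and at 303.9, 338.7 and 326.1 CPM in CD Onco livers. The log2 fold change was 0.86 (SE 0.174, adjusted p = 0.00257). In LPD Vec livers Apom stood at 181.4, 186.7 and 208.8 CPM and in LPD Onco livers at 227.1, 190 and 153.2 CPM. The 3 CD Onco livers were thus above all other 9, which overlapped.

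Among the apolipoproteins that act on triglyceride hydrolysis, Apoa5, which promotes it, changed most. Apoa5 stood at 2248, 2659 and 1996 CPM in CD Vec and at 876.2, 929.7 and 480.2 CPM in CD Onco livers. It fell by 1.60 on the log2 scale (SE 0.246, adjusted p = 0.000503), to 0.331 of the Vec level. In LPD Vec livers it stood at 1940, 1648 and 1776 CPM and in LPD Onco livers at 1481, 2079 and 2218 CPM, so that every LPD Onco liver was above every CD Onco liver. The call on CD held in all 19 alternative fits, 12 of which left out 1 library each, with adjusted p between 0.000575 and 0.00202 in those 12.

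Apoc3 and Apoc1, which oppose hydrolysis or clearance, fell on CD, and Apoc2, the activator of lipoprotein lipase, was level. Apoc3 stood at 1867, 2583 and 1752 CPM in CD Vec and at 1446, 983 and 1176 CPM in CD Onco livers, without overlap (log2 fold change -0.78, SE 0.194, adjusted p = 0.00839). It stood at 2028, 1689 and 1758 CPM in LPD Vec and at 1571, 1476 and 1871 CPM in LPD Onco livers, which overlapped. Apoc1 stood at 2208, 2875 and 1957 CPM in CD Vec and at 1013, 1381 and 1357 CPM in CD Onco livers, again without overlap (log2 fold change -0.91, SE 0.21, adjusted p = 0.00561). LPD Vec livers held 2017, 1420 and 1415 CPM of Apoc1 and LPD Onco livers 1467, 1326 and 1765 CPM. Apoc2 stood at 187.3, 248.6 and 148.3 CPM in CD Vec and at 226.5, 167.6 and 191.4 CPM in CD Onco livers. The difference was 0.0032 on the log2 scale (SE 0.185, adjusted p = 0.992), and its sign turned under another scaling. Its LPD Vec livers held 149.3, 134.6 and 116.8 CPM and its LPD Onco livers 178.5, 171.9 and 152.8 CPM, which did not overlap, as was so for 13.5% of all genes in that direction. The log2 fold change was 0.33 and was not called (SE 0.185, adjusted p = 0.577). Apoc2 shares its span with a read-through gene that has no row of its own in the table, so reads of the pair could not be separated.

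Apoa4, an apolipoprotein of intestine and liver that rises with triglyceride load, was high in 1 liver. It stood at 2567, 485.4 and 417.1 CPM in the CD Onco livers, with replicate 1 above all others, and at 389.6, 571.6 and 283.3 CPM in CD Vec. It stood at 329.9, 398.2 and 387.2 CPM in LPD Vec and at 475.6, 409.2 and 330.9 CPM in LPD Onco livers. The log2 fold change on CD was 1.48 (SE 0.577, adjusted p = 0.0672), and without CD Onco replicate 1 it was 0.12 (adjusted p = 0.756). It was called without CD Onco replicate 2 (1.85, adjusted p = 0.0289) or replicate 3 (1.88, adjusted p = 0.0196), which leave the high liver in. Of the enterocyte markers, Alpi and Sis were at 0 counts in all 12 libraries and Lct had at most 2. Vil1, which encodes villin, rose on CD, from at most 0.156 CPM in the Vec livers to 4.47, 15.3 and 5.65 CPM. Fabp2 fell, from 120, 120 and 76.2 CPM to 46.3, 61.8 and 61.2 CPM, a call that was lost with total counts and with the term for header runs. The 5 enterocyte markers summed to between 76.39 and 120.4 CPM in CD Vec, 50.8 and 77.06 CPM in CD Onco, 38.31 and 71.09 CPM in LPD Vec and 52.92 and 67.72 CPM in LPD Onco livers. The source of the high Apoa4 in 1 liver was not tested.

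The second comparison asked the same of mice on LPD. None of the 10 genes was called between Onco and Vec livers by edgeR or by DESeq2, where 1.32% of all genes tested were called by edgeR. An unadjusted p under 0.05 was reached by 0 of the 10 and by 11.1% of all genes. The median log2 fold change over the 10 genes was -0.07. The values ran from -0.39 for Apoa2 (SE 0.22, adjusted p = 0.571) to 0.33 for Apoc2. For the genes called on CD other than Apoa2, the LPD values were 0.11 for Apoa5 (SE 0.24), -0.08 for Apob (SE 0.141), -0.09 for Apoc1 (SE 0.208), -0.15 for Apoc3 (SE 0.193), -0.06 for Apoe (SE 0.186) and -0.02 for Apom (SE 0.172). The signs of Apob, Apoc1, Apoe and Apom turned under scaling by total counts.

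In Vec livers, LPD against CD changed none of the 10 genes past the threshold, in edgeR or in DESeq2, and 0.308% of all genes were called. An unadjusted p under 0.05 was reached by 4 of them, all lower on LPD, and by 9.87% of all genes. These were Apoc2 (log2 fold change -0.54, SE 0.185, adjusted p = 0.294), Apoe (-0.51, SE 0.186, adjusted p = 0.345), Apoc1 (-0.54, SE 0.209, adjusted p = 0.388) and Apoa2 (-0.49, SE 0.22, adjusted p = 0.489). None of the 4 reached it in the edgeR fit without CD Vec replicate 2, where Apoc2 was lowest at an unadjusted p of 0.062. The same was so without LPD Vec replicate 3, where Apoc2 was lowest at 0.0548. Of these 4 Apoe alone had no overlap between the groups, as was so for 9.02% of all genes in the lower direction. Apoa5, which is not among the 4, was also lower without overlap (-0.36, SE 0.241, adjusted p = 0.678). Apob differed by -0.0039 (SE 0.141, adjusted p = 0.998), a difference with no fixed sign.

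**Figure D2:**
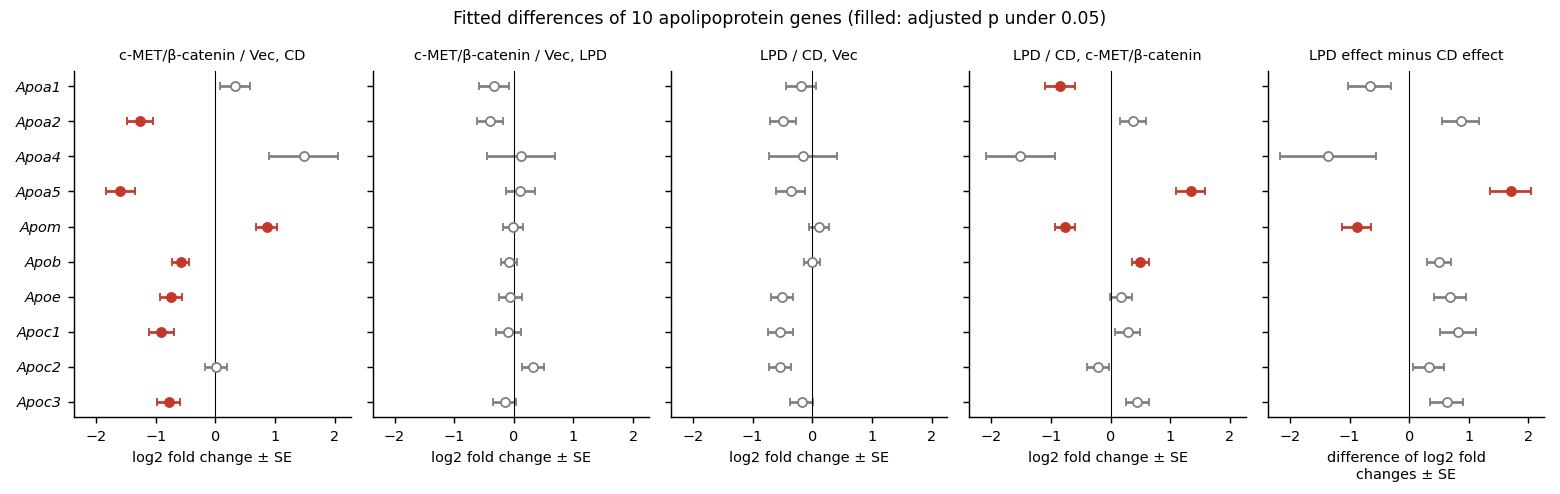
Fitted log2 fold change of the 10 genes in each comparison, with bars of 1 SE, from a fit of all 12 livers. Filled red points have an adjusted p under 0.05: 7 for Onco against Vec on CD, none on LPD, none for diet in Vec livers, 4 for LPD against CD in Onco livers and 2 for the difference between the diets' effects.

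In Onco livers, 2 of the 10 genes were higher on LPD than on CD, Apoa5 and Apob, and 2 were lower, Apoa1 and Apom. Of all genes tested 8.66% were higher and 11.3% lower. The study reports a lower tumor burden in LPD than in CD Onco mice at this time. Diet and tumor load therefore cannot be told apart, here or in the interaction below. This comparison shares the CD Onco libraries with the first, so its values are not independent of it. Apoa5 rose by 1.34 on the log2 scale (SE 0.245, adjusted p = 0.00355), which is 2.53-fold, and Apob by 0.50 (SE 0.141, adjusted p = 0.0274). Apoa1 fell by 0.86 on the log2 scale (SE 0.253, adjusted p = 0.0325) and Apom by 0.76 (SE 0.173, adjusted p = 0.01). In all 4 the groups did not overlap, as was so for 19.2% of all genes in the higher and 20.1% in the lower direction. Apoc3 did not overlap either, with a difference of 0.45 on that scale (SE 0.193, adjusted p = 0.126), and Apoa4 was at -1.51 (SE 0.578, adjusted p = 0.09). Apoa4 again turned on CD Onco replicate 1, since it was at -0.15 (adjusted p = 0.733) without it and called without replicate 2 (-1.88, adjusted p = 0.0436) or replicate 3 (-1.91, adjusted p = 0.0296).

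The call of Apoa5 between the diets held in all 19 alternative fits, at 1.10 (adjusted p = 0.00514) without CD Onco replicate 3. That of Apom was lost with the term for header runs (-0.78, adjusted p = 0.0994) and in no other fit. The call of Apoa1 was lost with that term (-0.72, adjusted p = 0.332). It was also lost without CD Onco replicate 1 or 2 or any 1 of the LPD Onco replicates, with adjusted p up to 0.109 and values between -0.96 and -0.76. The call of Apob was lost with that term, with total counts, with the replicate number as a term, with a fit of the 2 groups alone, and without any 1 of the CD Onco replicates or LPD Onco replicate 1 or 2. In the fits that left out 1 library its adjusted p reached 0.0765 and its values stayed between 0.47 and 0.56.

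The difference between the effects of Onco on LPD and on CD was tested as the interaction of injection and diet. It was called for 2 of the 10 genes, where 4.49% of all genes were called as higher and 4.42% as lower. For Apoa5 the effect on LPD exceeded that on CD by 1.70 on the log2 scale (SE 0.342, adjusted p = 0.0141), and the call held in all 18 alternative fits. For Apom the effect on LPD was below that on CD, with a difference of -0.88 (SE 0.244, adjusted p = 0.0457), and this call held in 5 of 18 fits. Of the 12 fits that left out 1 library, it held without CD Vec replicate 3 and without LPD Onco replicate 1, and it was lost without any of the other 10, with adjusted p up to 0.111 and values between -0.92 and -0.73. The other genes that fell on CD had interaction values from 0.50 for Apob (SE 0.199, adjusted p = 0.136) to 0.87 for Apoa2 (SE 0.311, adjusted p = 0.102), none of them called. An unadjusted p under 0.05 was reached by 7 of the 10 genes and by 25.8% of all genes. In the edgeR fit without LPD Vec replicate 2, Apob (unadjusted p = 0.0795), Apoc3 (0.0848) and Apoe (0.0556) no longer reached it. Apoa1, at -0.66 (adjusted p = 0.263), was called without CD Vec replicate 2 (-1.02, adjusted p = 0.0475) and was at -0.43 (adjusted p = 0.379) without CD Vec replicate 1.

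Because the genes within a cluster differed, their positions were set against the values. On chromosome 9 the order is Apoa1 (46228630 to 46230469, plus strand), Apoc3 (46233050 to 46235636, minus strand), Apoa4 (46240844 to 46243458, plus strand) and Apoa5 (46268608 to 46271921, plus strand), all protein-coding, in GRCm38.p6. Within this cluster Apoc3 and Apoa5 fell on CD while Apoa1, next to Apoc3, was at 0.33. On chromosome 7 the order is Apoc2 (19671579 to 19677941), Apoc4, Apoc1 (19689480 to 19692659) and Apoe (19696244 to 19701310), all on the minus strand. There the values on CD ran from 0.0032 for Apoc2 through -0.35 for Apoc4 (SE 0.199, adjusted p = 0.199) to -0.91 for Apoc1 and -0.74 for Apoe. Apoa2 (chromosome 1, 171221564 to 171226379, plus strand), Apob (chromosome 12, 7977629 to 8016839, plus strand) and Apom (chromosome 17, 35128997 to 35131801, minus strand) stand alone.

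Genes beside the apolipoproteins, up to 3 on each side, showed no common direction. Of 31 such protein-coding neighbours tested, 8 rose and 5 fell on CD, with a median log2 fold change of 0.02, where 18.7% of all genes rose and 16.7% fell. Around the chromosome 9 cluster 1 of 6 was called, Pafah1b2 at 0.49 (adjusted p = 0.00536), and Sik3 and Zpr1, the closest on either side, were at 0.15 and -0.15. Next to Apoe, Tomm40, a mitochondrial import pore gene, fell by 0.50 on the log2 scale (adjusted p = 0.00545). Beside Apoa2 all 6 were called, 3 higher and 3 lower, among the latter Nr1i3, which encodes the nuclear receptor CAR (-1.33, adjusted p = 0.00105). Beside Apob, Ldah, a lipid droplet hydrolase gene, fell by 1.39 (adjusted p = 0.000616). Beside Apom 1 of 6 was called, the macrophage gene Aif1 (0.83, adjusted p = 0.0438), and Bag6 and Csnk2b, directly on either side, were not called. On LPD 0 of the 31 were called by edgeR, where 1.32% of all genes were.

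**Figure D3:**
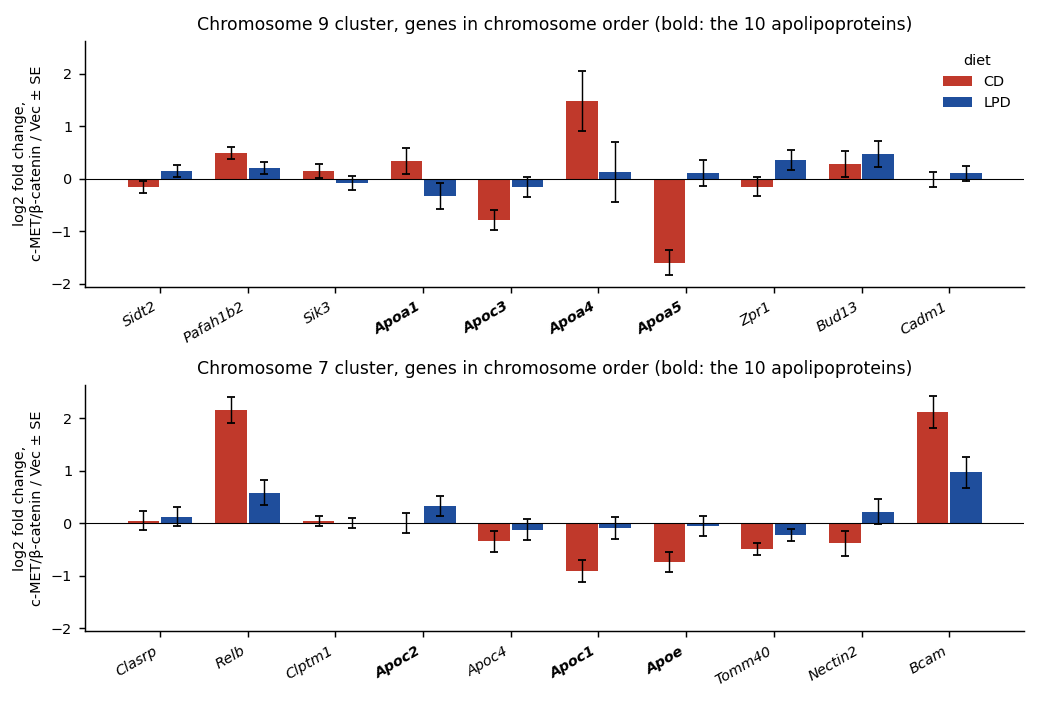
Log2 fold change of Onco against Vec, with bars of 1 SE, for the genes of the chromosome 9 and chromosome 7 clusters and their neighbours in chromosome order, on CD (red) and LPD (blue). On CD Apoc3 and Apoa5 fell beside Apoa1 and Apoa4, which were not called, and Apoc1 and Apoe fell while Apoc2 stayed near 0.

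Ratios of counts within a library do not depend on scaling. They were chosen after the values had been seen. Apoa1 over Apoa2, the pair of main HDL proteins, was 0.992, 1.75 and 1.55 in CD Vec and 6.03, 4.27 and 3.45 in CD Onco livers. It was 1.42, 2.19 and 1.89 in LPD Vec and 2.09, 1.77 and 1.78 in LPD Onco livers. Apoa1 over Apoc3, neighbours on chromosome 9, was 5.94 ± 1.45 in CD Vec and 13.5 ± 3.04 in CD Onco livers, and 6.05 ± 1.13 and 5.3 ± 0.187 in the LPD groups (SD, n = 3 each). Both ratios were higher in every CD Onco liver than in any of the other 9. Apoc3 over Apoc2, an inhibitor and the activator of lipoprotein lipase, was lower in Onco than in Vec livers on both diets, at 6.13 ± 0.26 against 10.7 ± 0.966 on CD and 9.88 ± 2.05 against 13.7 ± 1.26 on LPD. It was also higher on LPD than on CD, without overlap, in Vec and in Onco livers, and the LPD Onco livers (8.59 to 12.2) overlapped with the CD Vec livers (9.96 to 11.8). Apoa1 over Apob was 1.23, 2.97 and 1.64 in CD Vec and 3.83, 3.72 and 3.31 in CD Onco livers, and the LPD groups overlapped. Apoe over Apoc1 changed little in size but did not overlap on CD either, at 12.1, 11.1 and 11.8 in Vec and 13.4, 12.9 and 12.8 in Onco livers. As the pairs were picked for their values, no test of them is given.

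**Figure D4:**
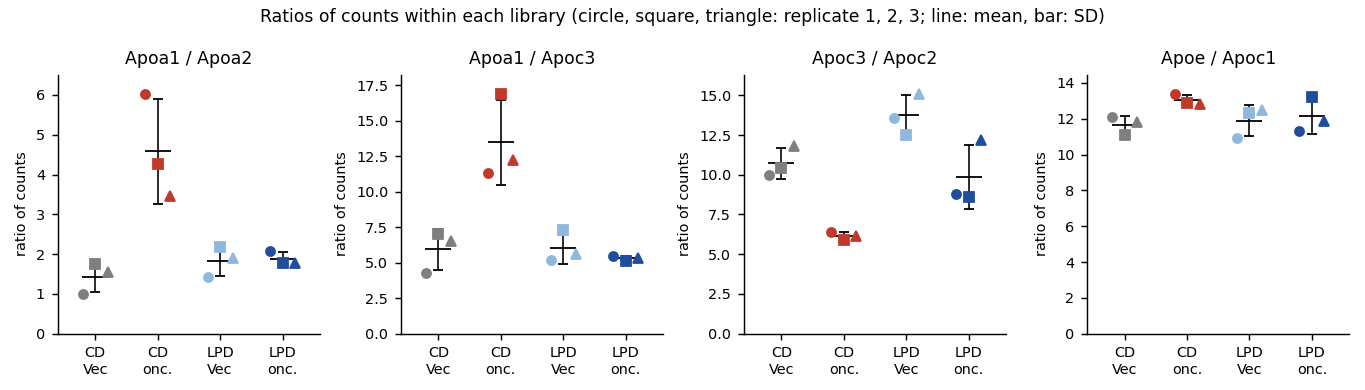
Ratios of the counts of a pair of genes in each library (onc. stands for Onco), with replicates as circles, squares and triangles, the mean as a line and the SD as a bar (n = 3), on linear axes from 0. Apoa1 over Apoa2 lay between 3.45 and 6.03 in CD Onco livers and between 0.992 and 2.19 in all others, and Apoe over Apoc1 lay between 12.8 and 13.4 in CD Onco and between 11.1 and 12.1 in CD Vec livers.

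Likeness between genes was measured as the root mean square difference of log2 CPM, each gene centred on its own mean over the 12 libraries, which are in 4 groups and are not independent points. Apoc1 and Apoe, neighbours on chromosome 7, were the most alike pair of the 10 at 0.095, followed by Apoa2 and Apoc1 at 0.187 and Apoa2 and Apoe at 0.243, whereas Apoa4 and Apoa5 were least alike at 1.23. Apoa5 itself had an SD of 0.69. The genes outside the 10 most like Apoa5 were Sema6c, a semaphorin gene, at 0.171, Caln1, which encodes a calcium-binding protein, at 0.204, and Acsl1, which encodes the main long-chain acyl-CoA synthetase of liver, at 0.248. Acsl1 fell by 1.60 on the log2 scale on CD and rose by 1.69 between the diets in Onco livers. As Acsl1 was picked for its likeness to Apoa5 over these same libraries, values near those of Apoa5 follow from the choice. Those most like Apoa4 were Prkab2, a subunit of AMP-activated kinase, at 0.306, Ero1a, an oxidase of the endoplasmic reticulum, at 0.31, and Tnip2, a regulator of inflammatory signaling, at 0.344, against an SD of 0.786 for Apoa4.

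Genes that act with the apolipoproteins were counted by list. Of 9 further apolipoproteins 8 were tested, and 3 fell and 0 rose on CD. Saa4, an HDL protein of the serum amyloid A family, fell by 1.30 (SE 0.279, adjusted p = 0.00366) and Apon, a liver-expressed apolipoprotein, by 0.94 (SE 0.14, adjusted p = 0.000409), and the median over the list was -0.67. Of 10 genes for the assembly and secretion of VLDL, 1 rose and 3 fell, with a median of -0.42. Tm6sf2, a gene of VLDL lipidation, rose by 1.13 (SE 0.281, adjusted p = 0.0088), whereas A1cf, a cofactor of Apob mRNA editing, fell by 1.13 (SE 0.297, adjusted p = 0.0118) and Sar1b, which carries large lipoproteins out of the endoplasmic reticulum, by 0.68 (SE 0.135, adjusted p = 0.00242). Of 8 genes of HDL formation and remodelling, 1 rose and 1 fell. Scarb1, the receptor that takes cholesterol ester from HDL, rose by 0.83 (SE 0.157, adjusted p = 0.00171), and Lcat, which esterifies cholesterol on HDL, fell by 0.66 (SE 0.17, adjusted p = 0.0104) and was not called with total counts. The medians of all genes tested and their shares called on CD are those given above.

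On the side of uptake and hydrolysis, the list of 11 receptor and uptake genes held 4 that rose and 0 that fell on CD, with a median of 0.49. Sort1, which encodes the sorting receptor sortilin, rose by 1.46 (SE 0.319, adjusted p = 0.00436). Of 8 lipases and their regulators 1 rose and 2 fell, where 18.7% of all genes tested rose and 16.7% fell. Lpl, the lipase that Apoc2 activates and that adult hepatocytes normally make little of, stood at 10.3, 7.62 and 10.1 CPM in CD Vec and at 182, 130 and 150 CPM in CD Onco livers. Lpl thus rose by 4.04 on the log2 scale (SE 0.194, adjusted p = 1.14e-06). In LPD Vec livers Lpl stood at 7.19, 10.9 and 9.38 CPM and in LPD Onco livers at 18.7, 21.1 and 21.1 CPM. The rise on LPD was 1.15 on the log2 scale (SE 0.178, adjusted p = 0.00824) and was not called without LPD Vec replicate 1. No other gene of these 6 lists was called on LPD, where 1.32% of all genes tested were called. The effects on the diets differed by -2.89 (SE 0.252, adjusted p = 0.000373).

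Of 23 transcription factors and cofactors that act on apolipoprotein genes, 1 rose and 8 fell on CD, with a median log2 fold change of -0.52. Of all genes tested 18.7% rose and 16.7% fell there. Cebpa, a factor of hepatocyte differentiation, fell by 1.16 (SE 0.186, adjusted p = 0.000615) and Nr1h4, which encodes the bile acid receptor FXR, by 1.10 (SE 0.179, adjusted p = 0.000685). Hnf4a, named here after its value had been seen, was at -0.09 (SE 0.184, adjusted p = 0.735). On LPD 0 of the 23 were called, where 1.32% of all genes tested were. Between the diets in Onco livers 6 were higher and 1 lower, where 8.66% of all genes were higher and 11.3% lower, among them Mlxipl, which encodes the carbohydrate-responsive factor ChREBP (1.04, adjusted p = 0.0154, not called without LPD Onco replicate 1), and Nr1h4 (0.96, adjusted p = 0.0038). Neither was called there with the term for header runs. The term for header runs removed the CD calls of the genes named from these lists except Lpl, and it left that of Creb3l3, a liver regulator of triglyceride metabolism named here for this reason, which fell by 0.81 on CD (SE 0.145, adjusted p = 0.00124), rose by 0.80 between the diets in Onco livers (SE 0.145, adjusted p = 0.00344) and was called in all 19 fits of both comparisons.

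**Figure D5:**
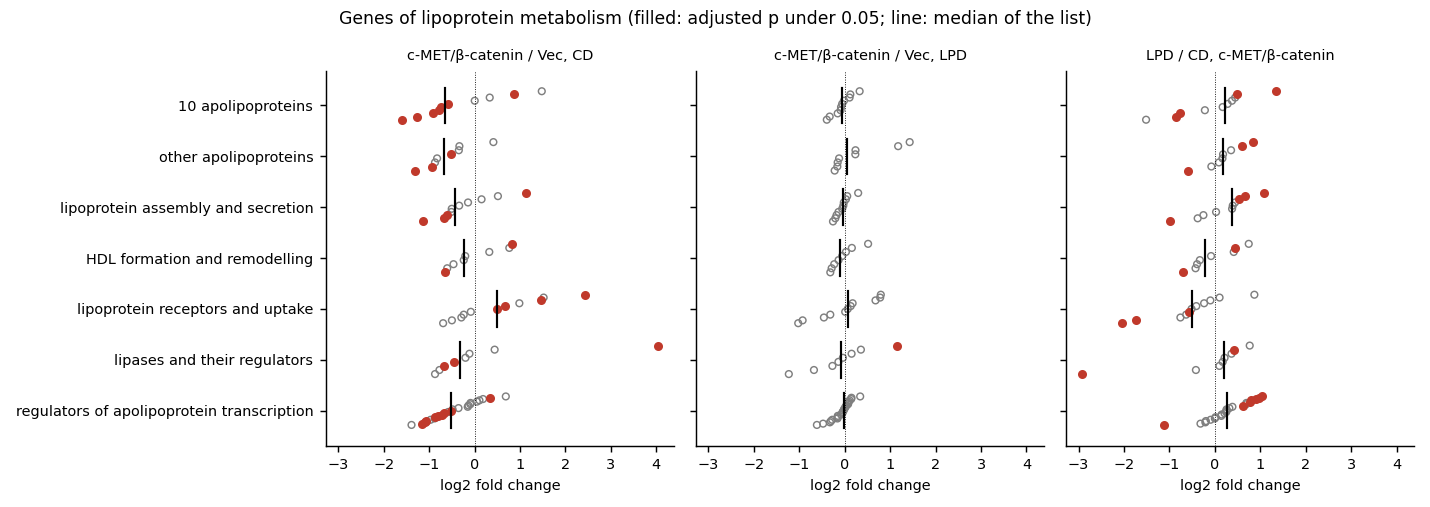
Log2 fold change of the 10 apolipoproteins and of 6 lists of genes of lipoprotein metabolism, 1 point per gene, for Onco against Vec on CD and on LPD and for LPD against CD in Onco livers. Filled red points have an adjusted p under 0.05 and vertical lines are the medians of the lists. The point far to the right on CD is Lpl, at 4.04.

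Hepatocyte markers were high in all 12 libraries and did not fall together on CD. Of 6 (Alb, Ttr, Trf, Ahsg, Fgb and Hp), 3 rose and 1, Ttr, fell on CD. Of all genes tested 18.7% rose and 16.7% fell on CD, shares that stand beside all marker counts on CD below. The call of Hp held in 5 of 19 alternative fits and in 1 of the 12 that left out a library, that of Ahsg was lost without CD Vec replicate 1 or CD Onco replicate 1, and the term for header runs removed all 4. Their summed level lay between 108800 and 117500 CPM in CD Vec, 110400 and 139400 CPM in CD Onco, 101700 and 125900 CPM in LPD Vec and 76900 and 110800 CPM in LPD Onco livers. Proliferation markers (Mki67, Top2a and Cdk1) rose in all 3 cases on CD, and their summed level went from between 2.217 and 9.268 CPM to between 88.84 and 126.6 CPM. On LPD, where none of the 10 apolipoproteins was called, the sum was between 3.928 and 4.894 CPM in Vec and between 12.29 and 38.28 CPM in Onco livers. Mki67 rose there by 3.27 on the log2 scale (SE 0.517, adjusted p = 0.0105), a call lost with the term for header runs and without any 1 of the LPD Vec replicates. Of 6 markers of stellate cells or fibroblasts, 3 rose (Reln, Col1a1 and Acta2) and 2 fell (Lrat and Dcn) on CD, and their sum lay between 195.1 and 249 CPM in CD Vec and between 200 and 452.3 CPM in CD Onco livers. Of 6 markers of sinusoidal endothelium 0 rose and 2 fell (Clec4g and Ptprb), with sums between 142.6 and 269.6 CPM and between 125 and 181.9 CPM. Of the cholangiocyte markers 4 were tested and 1 rose (Krt19), with sums between 7.706 and 8.585 CPM and between 10.15 and 13.46 CPM. Both neutrophil markers tested rose (S100a8 and S100a9), with sums between 1.365 and 2.499 CPM and between 4.904 and 14.99 CPM. Of 6 T and NK cell markers 1 rose (Cd8a) and 1 fell (Cd4, called in 5 of 19 alternative fits), with sums between 2.496 and 5.467 CPM and between 3.062 and 5.711 CPM. Of the calls in these 5 lists, those of Dcn and Krt19 held with the term for header runs. Between the diets in Onco livers, where Apoa5 and Apob rose and Apoa1 and Apom fell, the markers moved as well. Of all genes tested 8.66% were higher there and 11.3% lower. On LPD all 3 proliferation markers, 4 of 5 markers of tumor or lipid-associated macrophages, both neutrophil markers tested and Krt19 were lower than on CD, as were Vil1 and 2 of 6 hepatocyte markers (Trf and Ahsg). Of the stellate cell or fibroblast markers 2 were higher (Lrat and Dcn) and 3 lower (Reln, Col1a1 and Acta2), and of those of sinusoidal endothelium 2 were higher (Clec4g and Ptprb) and 0 lower. Of Kupffer cell and of T and NK cell markers 0 were called. The calls of Reln, Acta2, Gpnmb, Ahsg and Cdk1 were lost in 2 or more of the 12 fits that left out a library, and that of Lrat in 1. The part of any of these cells in the apolipoprotein values was not tested.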

How the data were processed

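RNA from 12 mouse livers was sequenced, and the values deposited are raw read counts per gene, which the authors obtained by alignment to mm10 with HISAT2 and counting by Entrez identifier with featureCounts. Versions, and how strand and multi-mapping reads were treated, are not given in the sources used here. The labels name depletion of ribosomal RNA and the study's methods name selection of mRNA, and which was used could not be settled. The methods name more than one strain, so none is given here. Symbols were found for 25275 genes in RefSeq and 18 in GENCODE, and 1886 had none.

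Counts were filtered with filterByExpr, which left out 13232 genes, scaled by TMM (factors 0.8638 to 1.122) and fitted with edgeR 4.0.16 in R 4.3.3 (glmQLFit and glmQLFTest), with the 4 groups as the design. The spread of each gene was estimated from all 12 libraries, and the common value over genes was a biological coefficient of variation of 23.2%. Benjamini-Hochberg adjustment was made over all genes tested, with a threshold of 0.05. The procedure was tested on simulated counts. Replicates of a group were separate mice, and no pair agreed within sampling noise. Alternatives were other scalings, no filter, DESeq2 1.42.0, a fit of the 2 groups compared, a replicate block, a term for header runs, and each library left out in turn. All 10 apolipoproteins are named. From each list at most 2 called genes with the largest rise and 2 with the largest fall in a comparison could be named, with up to 3 neighbours on each side of a locus and the 3 genes most like Apoa4 and Apoa5. The members and lists were chosen with earlier results of these data known.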

Additional observations from a re-analysis of the deposited data

Results flagged for a closer look

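The effect of Onco differed between LPD and CD, by the interaction term, for 2 apolipoproteins. For Apoa5 the difference was 1.70 on the log2 scale (adjusted p = 0.0141), and it was 2.28 with the term for header runs (adjusted p = 0.0285). For Apom it was -0.88 (adjusted p = 0.0457), and with that term it was -0.82 and not called (adjusted p = 0.25). Among the libraries of the second header run alone the differences were 2.20 for Apoa5 and -0.72 for Apom, without a test. With the term, as within that run, the CD Onco group is replicate 3 alone, the liver with the lowest Apoa5 of the 3, and without it the difference for Apoa5 was 1.46 (adjusted p = 0.0101).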

How the results depend on the processing

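With a term for the runs in the header 1 gene was called on CD in place of 7, 1 between the diets in Onco livers in place of 4, and 1 for the interaction in place of 2, and in each case it was Apoa5. CD Onco replicates 1 and 2 share their run with no other group, which leaves 1 CD Onco library in a run with the other groups. The fits that left out 1 library called between 7 and 8 genes on CD, between 2 and 4 between the diets in Onco livers, and between 1 and 2 for the interaction. For the interaction, 1 gene was called without the filter on low counts and 4 with DESeq2 (Apoa2 and Apob in addition). On LPD and for diet in Vec livers 0 were called in every fit. The same replicate number in different groups did not mark paired mice, since deviations of same-numbered libraries correlated between -0.183 and 0.167 over 18 pairs, and with a replicate block 7, 0, 0, 3 and 1 genes were called in the 5 comparisons, in the order of the report. Over all genes tested, calls on CD numbered 4933, against 3014 in a fit of the 2 groups alone and 945 with the header runs. On LPD they numbered 184, against 481 with DESeq2, 505 in the 2 groups alone and 75 with the header runs. For diet in Vec livers they numbered 43, against 66 with total counts, 340 with DESeq2, 3 in the 2 groups alone and 16 with the replicate block or the header runs. For diet in Onco livers they numbered 2784, against 618 with the header runs, and for the interaction 1243, against 2032 with DESeq2, 812 with the replicate block and 85 with the header runs. The share of higher genes among the calls moved with the header runs to 67.9% on CD and 28.6% for diet in Onco livers, from 52.8% and 43.4%, and with total counts to 29% for the interaction, from 50.4%.

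A turn of sign was seen in 33 values, none of them called. For Apoc2 on CD the log2 fold change was -0.0018 with DESeq2 size factors, -0.0028 with DESeq2, -0.0086 in the 2 groups alone, and between -0.15 and 0.21 with 1 library left out. On LPD, total counts gave 0.035 for Apob, 0.026 for Apoc1, 0.058 for Apoe and 0.095 for Apom, and the header runs gave 0.078 for Apoc1 and 0.063 for Apoe. With 1 library left out the LPD values lay between -0.21 and 0.097 for Apoc1, -0.16 and 0.057 for Apoe, -0.16 and 0.12 for Apom, -0.0070 and 0.25 for Apoa4, and -0.0062 and 0.26 for Apoa5. For diet in Vec livers Apob was at 0.092 with total counts, 0.0060 without the filter and 0.0019 in the 2 groups alone. With 1 library left out the values there lay between -0.058 and 0.088 for Apob, -0.035 and 0.25 for Apom, -0.43 and 0.16 for Apoa1, -0.36 and 0.14 for Apoa4, and -0.28 and 0.0057 for Apoc3. The interaction of Apoa4 lay between -1.75 and 0.0032, the latter without CD Onco replicate 1. Of the other alternative values 860 kept their direction and their side of the threshold, 10 newly passed it and 37 no longer did. The cause of these changes was not tested.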
